A study of Mus musculus with 25 samples.

Results

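The genes described here are 10 members of the Bcl2 family, which controls the mitochondrial route of apoptosis. They were taken by name and not by a rule on measured values, although earlier results of these data were known at the choice. All 10 were found among the 24984 genes of the deposited count table. Bcl2, Bcl2l1 (encoding Bcl-xL), Bcl2l2 (Bcl-w) and Mcl1 are pro-survival genes. Bcl2l11 (Bim), Bad, Bid, Bik and Bmf encode BH3-only proteins, and Bak1 encodes an effector.

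In this pathway the effectors Bak and Bax form pores in the outer mitochondrial membrane, which lets cytochrome c out and starts the caspase cascade. Pro-survival proteins hold the effectors and their activators in check, and BH3-only proteins, made or released on stress, occupy the pro-survival proteins or act on the effectors directly. Hepatocytes are known to depend on Bcl-xL and Mcl-1, and some myeloid cells on Mcl-1, whereas Erk signalling downstream of Ras is known to lower Bim protein and to modify Bad.

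RNA was sequenced from cultured cells and from cells sorted out of tumours to ask how the dose of oncogenic Ras and the site of growth shape liver tumours. BMEL cells are a non-transformed line of bipotential progenitors from embryonic mouse liver of a C57BL/6 and C3H cross, grown on collagen. The cultured groups were the control, which the sample labels call empty vector and which is named BMEL WT here, and RasLOW and RasHIGH cells, with 3 cultures each. The last 2 carry human H-Ras G12V from a bicistronic viral vector with a Venus or mCherry reporter. They were set apart by flow cytometry on reporter intensity, so each is a sorted population and not 1 clone. The tumour groups came from 4 athymic nude mice (Foxn1nu), which lack T cells but keep innate cells such as natural killer cells. BMEL cells with Ras were injected into the liver, and the liver tumour and the peritoneal tumour of each mouse were dissociated and sorted into fluorescent tumour cells and non-fluorescent stromal cells. The labels of the tumour libraries do not say which Ras population was injected, and no group holds tumour-free tissue.

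Total counts per library lay between 20818989 and 51241336, and 3 counts in a library corresponded to 0.0576 to 0.141 CPM, the unit of counts scaled to a common library total. The summed level of 6 epithelial progenitor markers such as Krt8 was 7028 to 10897 CPM in cultured and tumour cells and 667 to 1546 CPM in stromal cells, although Epcam itself was near 0 in BMEL cells and their tumours. The summed level of 5 leukocyte markers was 2186 to 4079 CPM in stromal cells and 26.4 to 93.8 CPM in tumour cells. Fibroblast markers summed to 53848 to 82108 CPM in peritoneal stroma but 4078 to 8292 CPM in liver stroma. The peritoneal tumour cells of mouse 1 stood apart, with 1500 CPM of fibroblast markers against 218 to 334 CPM in the other 3 libraries, and the peritoneal stroma of mouse 1 held 2905 CPM of neutrophil markers against 475 to 530 CPM in the others. Results that rest on them are given with and without them where a call changed.

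The promoters of 3 members are shown. Apart from Bik, these had the largest ratios of highest to lowest group mean, 12.2 for Bcl2l11, 7.27 for Mcl1 and 4.96 for Bcl2. Bcl2l1 followed at 4.48. Mcl1 and Bcl2l11 were both much higher in stroma than in tumour cells, and Bcl2 was higher in tumour cells. Each line is the 200 bases before a transcription start of RefSeq, written 5′ to 3′ on the gene's strand of GRCm38.p6, and capitals mark the GC box GGGCGG on either strand.
Mcl1, chr3:95658521-95658720, plus strand: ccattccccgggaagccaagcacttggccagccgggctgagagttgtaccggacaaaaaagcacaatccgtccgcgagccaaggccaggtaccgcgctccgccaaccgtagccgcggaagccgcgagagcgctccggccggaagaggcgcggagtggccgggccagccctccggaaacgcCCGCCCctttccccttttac
Bcl2l11 (the first of its 2 starts), chr2:128125838-128126037, plus strand: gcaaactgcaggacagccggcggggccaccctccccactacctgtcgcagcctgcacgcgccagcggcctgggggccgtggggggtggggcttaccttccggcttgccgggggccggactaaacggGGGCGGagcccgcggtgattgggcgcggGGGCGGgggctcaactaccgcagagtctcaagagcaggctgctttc
Bcl2, chr1:106714291-106714490, minus strand: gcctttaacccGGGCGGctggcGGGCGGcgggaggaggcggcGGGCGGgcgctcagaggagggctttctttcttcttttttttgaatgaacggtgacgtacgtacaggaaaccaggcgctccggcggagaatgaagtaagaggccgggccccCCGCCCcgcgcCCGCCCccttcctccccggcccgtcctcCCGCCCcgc
RefSeq start sites were found for 9 of the 10 members, in 15 windows, and 7 windows of 6 genes held a GC box, against 31% of 32851 windows of all genes. The E-box CACGTG (5.26% of all windows), the forkhead motif TGTTTAC (2.51%), the cyclic AMP response element TGACGTCA (1.47%), the NF-kB motif (0.128%) and the AP-1 motif TGANTCA (5.48%) were found on either strand in 0 of the 15 windows. With the GC box the only motif found, no matches of different motifs shared bases, and a match or its absence describes letters only.

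The levels below are CPM scaled by TMM factors over all 25 libraries, in the order of the replicates, with errors as SD over 3 cultures or 4 mice. In these bulk samples, fewer cells of a type and less RNA per cell cannot be told apart.

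**Figure D1:**
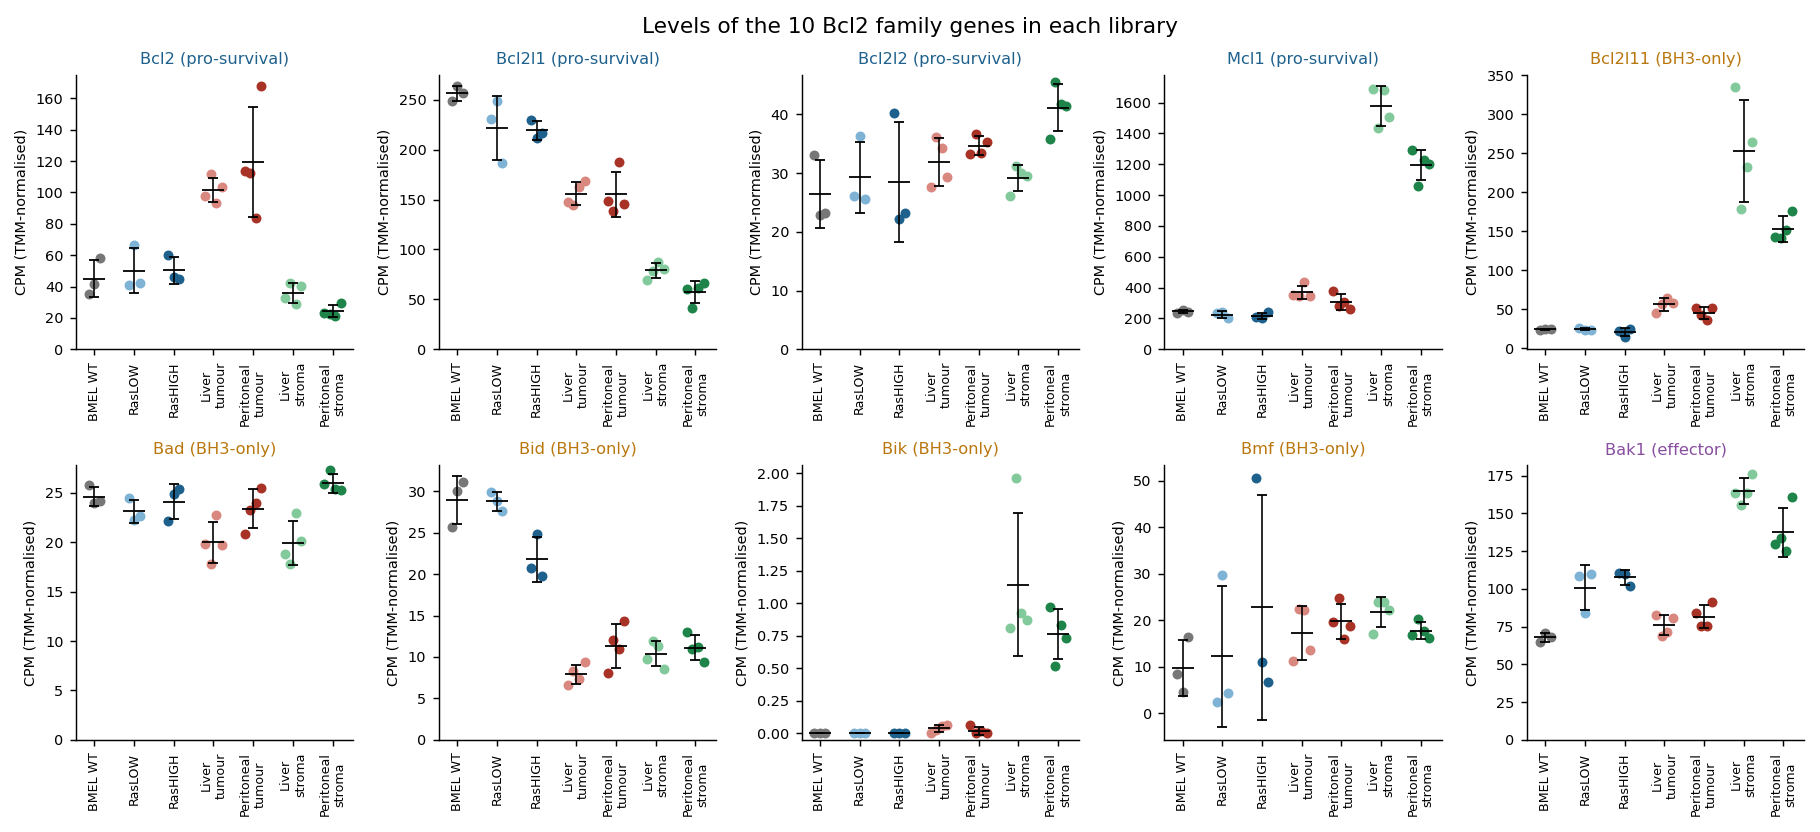
CPM of the 10 genes (vertical axis, linear and different for each gene) in the 7 groups (horizontal axis). Each point is 1 library, and black marks give the mean and SD. Mcl1, Bcl2l11 and Bak1 stand highest in the stromal libraries, Bcl2 in the tumour cells, Bcl2l1 and Bid in the cultures, and Bmf spreads widely among RasLOW and RasHIGH cultures.

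Mcl1 encodes a short-lived pro-survival protein that restrains Bak and Bim, and its gene lies on chromosome 3 (mm9, 95462643 to 95467099). It stood at 238, 256 and 243 CPM in BMEL WT, at 232, 241 and 200 CPM in RasLOW and at 207, 203 and 241 CPM in RasHIGH. Liver tumour cells held 353, 345, 434 and 343 CPM and peritoneal tumour cells 380, 281, 306 and 262 CPM. All tumour libraries lay above all cultures, and the tumour groups overlapped. In stroma the levels were 1691, 1436, 1683 and 1506 CPM in the liver and 1292, 1061, 1228 and 1200 CPM in the peritoneum. Both stromal groups lay far above every other group and did not overlap each other.

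Bcl2, the founding pro-survival gene, lies on chromosome 1 (mm9, 108434755 to 108610851). Its levels were 35.2, 41.6 and 58.3 CPM in BMEL WT, 41.0, 66.7 and 42.4 CPM in RasLOW and 60.2, 46.3 and 44.5 CPM in RasHIGH. Liver tumour cells held 97.8, 111, 93.3 and 103 CPM and peritoneal tumour cells 114, 112, 83.7 and 168 CPM. Every tumour library exceeded every culture, while the 3 cultured groups overlapped one another. Stroma held 32.5, 42.5, 29.1 and 40.3 CPM in the liver and 22.8, 22.4, 21.4 and 29.7 CPM in the peritoneum. Liver stroma overlapped the cultures, and peritoneal stroma lay below every culture.

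Bcl2l1, whose main product Bcl-xL guards hepatocytes against Bak and Bax, lies on chromosome 2 (mm9, 152593052 to 152657464). Its levels were highest in culture, intermediate in tumour cells and lowest in stroma. The cultures held 248, 264 and 257 CPM in BMEL WT, 231, 249 and 186 CPM in RasLOW and 230, 212 and 217 CPM in RasHIGH. Tumour cells held 147, 145, 163 and 169 CPM in the liver and 148, 138, 188 and 146 CPM in the peritoneum. Stroma held 69.6, 78.6, 87.5 and 80.8 CPM in the liver and 60.5, 41.0, 61.4 and 66.0 CPM in the peritoneum. The table gives counts per gene, so the long pro-survival and the short pro-apoptotic transcripts of this gene were not resolved.

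Bcl2l2 encodes Bcl-w and lies on chromosome 14 (mm9, 55502214 to 55507071). It varied least among the pro-survival genes, from 22.2 to 40.3 CPM in the 9 cultures, from 27.6 to 36.6 CPM in the 8 tumour cell libraries and from 26.1 to 45.4 CPM in the 8 stromal libraries. Its highest culture was RasHIGH replicate 1 and its highest group was the peritoneal stroma, at 41.1 ± 3.98 CPM (n = 4). The annotated read-through gene Gm20521 shares 594 of its 4462 exon bases on the same strand, so part of this signal cannot be assigned.

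Bcl2l11 encodes Bim, an activator BH3-only protein that binds every pro-survival member, and lies on chromosome 2 (mm9, 127951774 to 127988283). The cultures held 23.1, 24.8 and 24.2 CPM in BMEL WT, 26.3, 23.4 and 23.7 CPM in RasLOW and 22.2, 14.7 and 25.2 CPM in RasHIGH. Tumour cells held 45.4, 57.3, 64.2 and 58.0 CPM in the liver and 51.9, 42.6, 36.2 and 51.5 CPM in the peritoneum. Every tumour library exceeded every culture. The stromal levels of 335, 179, 233 and 264 CPM in the liver and 143, 141, 152 and 177 CPM in the peritoneum did not overlap with each other or with any other group.

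Bid encodes a BH3-only protein that caspase-8 cleaves, joining death receptors to mitochondria, and lies on chromosome 6 (mm9, 120841948 to 120866871). Its cultured levels were 25.6, 30.1 and 31.2 CPM in BMEL WT, 29.9, 28.8 and 27.6 CPM in RasLOW and 20.8, 24.9 and 19.7 CPM in RasHIGH. Tumour cells held 6.66, 8.25, 7.36 and 9.34 CPM in the liver and 8.02, 12.1, 10.9 and 14.4 CPM in the peritoneum. All tumour cell libraries lay below all cultures. Stroma held 10.4 ± 1.5 CPM in the liver and 11.1 ± 1.48 CPM in the peritoneum (n = 4 each). Both overlapped the peritoneal tumour cells, and liver stroma also overlapped the liver tumour cells.

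Bad encodes a BH3-only protein that survival kinases hold inactive by phosphorylation, and lies on chromosome 19 (mm9, 7016351 to 7026388). Its level was nearly flat, from 17.8 to 27.3 CPM over all 25 libraries. Peritoneal stroma was highest at 26.0 ± 0.946 CPM (n = 4), and liver stroma lowest at 19.9 ± 2.23 CPM (n = 4).

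Bmf encodes a BH3-only protein that is tethered to the cytoskeleton and released when cells lose anchorage, and lies on chromosome 2 (mm9, 118354493 to 118375423). It was the most variable member in culture, at 8.34, 4.55 and 16.4 CPM in BMEL WT, 2.37, 29.8 and 4.42 CPM in RasLOW and 50.6, 11.0 and 6.76 CPM in RasHIGH. RasLOW replicate 2 and RasHIGH replicate 1 stood far above the other cultures of their groups, so that all 3 groups overlapped. Those 2 cultures were also the highest of their groups in Bcl2 and Bcl2l2. Tumour cells ranged from 11.1 to 24.8 CPM and stroma from 16.2 to 23.8 CPM.

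Bik encodes a BH3-only protein of the endoplasmic reticulum and lies on chromosome 15 (mm9, 83357292 to 83375065). It had 0 counts in all 9 cultures, which allows up to 0.0984 to 0.135 CPM at a floor of 3 counts per library. Tumour cell libraries held 0 to 2 counts each, which is under that floor. Stroma held 0.814, 1.96, 0.922 and 0.873 CPM in the liver and 0.971, 0.515, 0.832 and 0.737 CPM in the peritoneum, from 11 to 56 counts per library.

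Bak1 encodes the effector Bak and lies on chromosome 17 (mm9, 27156755 to 27165954). It stood at 64.9, 71.0 and 68.2 CPM in BMEL WT, at 109, 83.8 and 110 CPM in RasLOW and at 111, 110 and 102 CPM in RasHIGH. Every Ras culture exceeded every BMEL WT culture, and the Ras groups overlapped. Tumour cells held 82.6, 68.9, 71.5 and 80.9 CPM in the liver and 84.0, 75.5, 75.3 and 91.5 CPM in the peritoneum. Stroma held 164, 156, 163 and 176 CPM in the liver and 129, 134, 125 and 161 CPM in the peritoneum, above every culture and tumour library.

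Bcl2, Bak1, Bad and Bid overlap a gene on the other strand, with 558 of 7191 exon bases of Bcl2 shared with D630008O14Rik, 357 of 2407 exon bases of Bak1 shared with Ggnbp1, 517 of 2007 of Bad shared with Gpr137 and 628 of 3550 of Bid shared with Bcl2l13. The strand setting of the authors' counting is not given in the sources used here, so reads from these stretches cannot be assigned to 1 strand.

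Levels of different genes can be set side by side only per length of transcript. Levels were therefore divided by the merged exon length of each gene in GENCODE vM1. Mcl1 was then the most abundant of the 4 pro-survival members in all 7 groups. It ranged from 62.3 ± 6.05 CPM per kb in RasHIGH (n = 3) to 453 ± 36.7 CPM per kb in liver stroma (n = 4). In the cultures it made up 51.1% to 51.7% of the summed level of these 4 genes, with Bcl2l1 at 37.5% to 39.6%. The order of Mcl1 and Bcl2l1 there rests on the lengths used, since their CPM were alike (246 and 256 in BMEL WT, 217 and 219 in RasHIGH). The merged length is 3485 bases for Mcl1, with 1 annotated transcript, and 4734 for Bcl2l1, with 10. In tumour cells the share of Mcl1 was 66.0% ± 2.56 in the liver and 60.4% ± 4.85 in the peritoneum (SD, n = 4 each). The share of Bcl2l1 there was 20.6% ± 1.65 and 22.6% ± 3.29, and that of Bcl2 was 8.89% ± 1.21 and 11.6% ± 3.92, against 4.57% to 5.74% in the cultures. Of the sum of these 4 genes, Mcl1 made up 94.1% ± 0.779 in liver stroma and 93.3% ± 0.526 in peritoneal stroma. The Bcl2a1 genes, further pro-survival genes taken up below, were outside this sum. Bcl2a1b averaged 96.3 CPM in liver stroma and 63.8 CPM in peritoneal stroma, over 817 exon bases. Bcl2l1 averaged 79.1 and 57.2 CPM there over 4734 bases, so Bcl2a1b exceeded it per kb. With the Bcl2a1 genes counted, the stromal share of Mcl1 would be lower.

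Among the 5 BH3-only members, Bad was the largest part in the cultures, at 46.5% to 48.9% of their summed level per kb. Bcl2l11 made up 10.4% to 12.3% of that sum. The share of Bcl2l11 was 31.0% ± 1.46 in liver and 23.4% ± 3.68 in peritoneal tumour cells, and 62.6% ± 7.68 and 48.4% ± 3.67 in the corresponding stroma (SD, n = 4 each). Bid made up 24.9% to 32.6% in the cultures but 9.94% to 13.1% in tumour cells and 6.03% in liver stroma. Merged exon length overstates the length of genes with several transcripts, such as Bcl2l11 with 8 annotated transcripts, and so understates their share. Pmaip1, a further BH3-only gene taken up below, was outside these sums. Its BMEL WT mean was 86.4 CPM over 2646 exon bases, so per kb it exceeded Bad, with 24.6 CPM over 2007. Means of 19.6 (RasLOW) and 4.00 CPM (RasHIGH) put Pmaip1 below Bad. In liver stroma Pmaip1 averaged 175 CPM and so exceeded Bcl2l11 per kb, which averaged 253 CPM over 8029 bases.

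**Figure D2:**
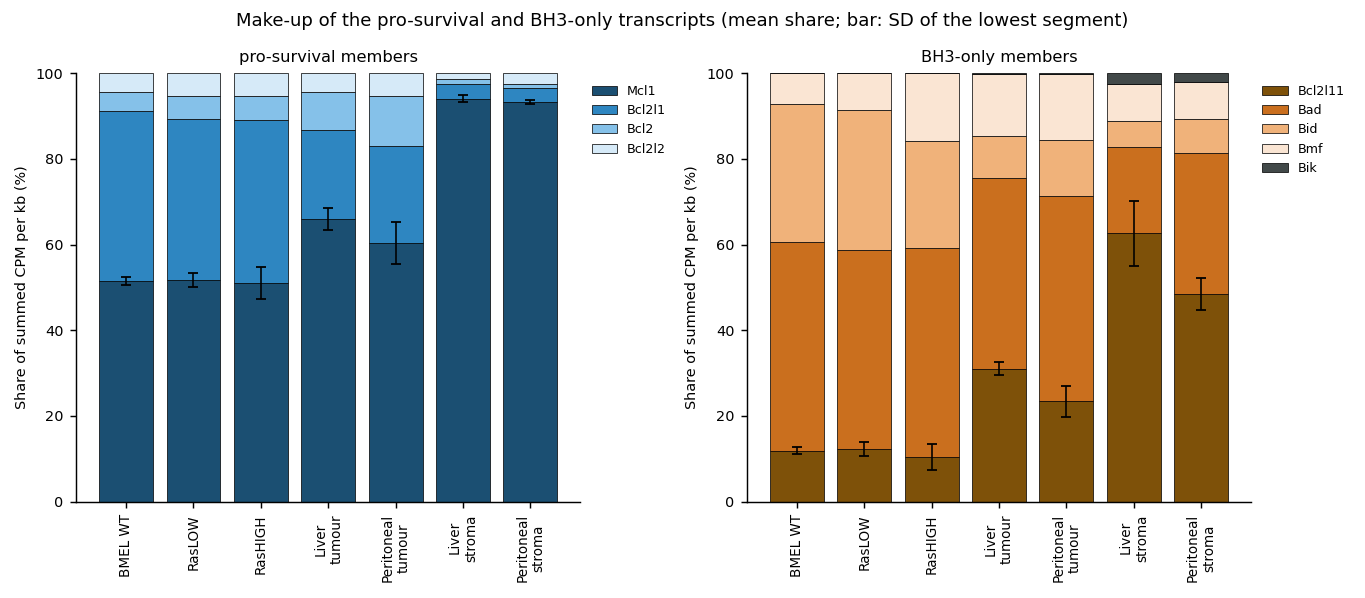
Mean share of each gene in the summed CPM per kb (vertical axis, percent) of the 4 pro-survival genes (left) and the 5 BH3-only genes (right) in the 7 groups. Error bars are the SD of the lowest segment, Mcl1 or Bcl2l11. Mcl1 makes up 51.1% in RasHIGH and 94.1% in liver stroma, and Bcl2l11 10.4% and 62.6%.

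The first comparisons asked whether the dose of Ras moved these genes in culture. Bak1 was higher in RasHIGH than in BMEL WT, at 108 ± 4.74 against 68.0 ± 3.06 CPM (n = 3 each), and the other members tested did not pass. Genes were called at an adjusted p under 0.05 from edgeR's quasi-likelihood test over all genes tested. In RasHIGH against BMEL WT, 1 of the 9 members tested was called, where 22.6% of all 12331 genes were (10.9% higher and 11.7% lower). The groups of 3 members, Bak1, Bid and Bcl2l1, did not overlap, as was so for 42.9% of all genes. The log2 fold change of Bak1 was 0.62 (SE 0.11, edgeR adjusted p = 0.00754). Of the BMEL WT libraries, numbers 1 and 2 ran in lane 3, whereas lane 4 held the other cultures, and with lane as a term the log2 fold change was 0.61 and the call was lost (edgeR adjusted p = 0.145). Within lane 4, the single BMEL WT culture at 68.2 CPM lay below all 3 RasHIGH cultures.

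In RasLOW against BMEL WT, 0 of the 9 members tested were called, where 5.96% of 12307 genes were (1.92% higher and 4.05% lower), and 1 member had an unadjusted p under 0.05. Its groups did not overlap, as was so for 28.5% of all genes. That member was Bak1, at 101 ± 14.8 CPM in RasLOW, with a log2 fold change of 0.53 (SE 0.14, edgeR adjusted p = 0.0690). It was called by DESeq2 (adjusted p = 0.0153), by edgeR's exact test (adjusted p = 0.0355), with all 25 libraries in 1 fit (edgeR adjusted p = 0.00190) and without RasLOW replicate 2 (edgeR adjusted p = 0.0106), that is in 4 of 14 alternatives. The same lanes divide these groups, and with lane as a term the log2 fold change was 0.53, with the largest edgeR adjusted p of the 14, 0.640.

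Between RasHIGH and RasLOW, 0 of the 9 members were called, where 0.0752% of 11962 genes were (0.0585% higher and 0.0167% lower). None of the 9 had an unadjusted p under 0.05 in edgeR, and DESeq2 also called 0. The log2 fold changes of the members other than Bmf and Bid lay between -0.24 and 0.10. Bid was the 1 member whose groups did not overlap, as was so for 15.7% of all genes. It was lower in RasHIGH than in RasLOW, with a log2 fold change of -0.40 (SE 0.18, edgeR adjusted p = 0.532), and lower than in BMEL WT with -0.45 (SE 0.16, edgeR adjusted p = 0.0916). Bmf had the largest log2 fold change of the members in RasHIGH against RasLOW, 0.87, and did not pass. It also had the largest in RasHIGH against BMEL WT, 1.17, with an SE of 0.78 (edgeR adjusted p = 0.339). Between RasHIGH and RasLOW the median absolute log2 fold change was 0.07 for the members against 0.22 for all genes. Without RasLOW replicate 2 and RasHIGH replicate 1, again 0 members were called between RasHIGH and RasLOW.

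**Figure D3:**
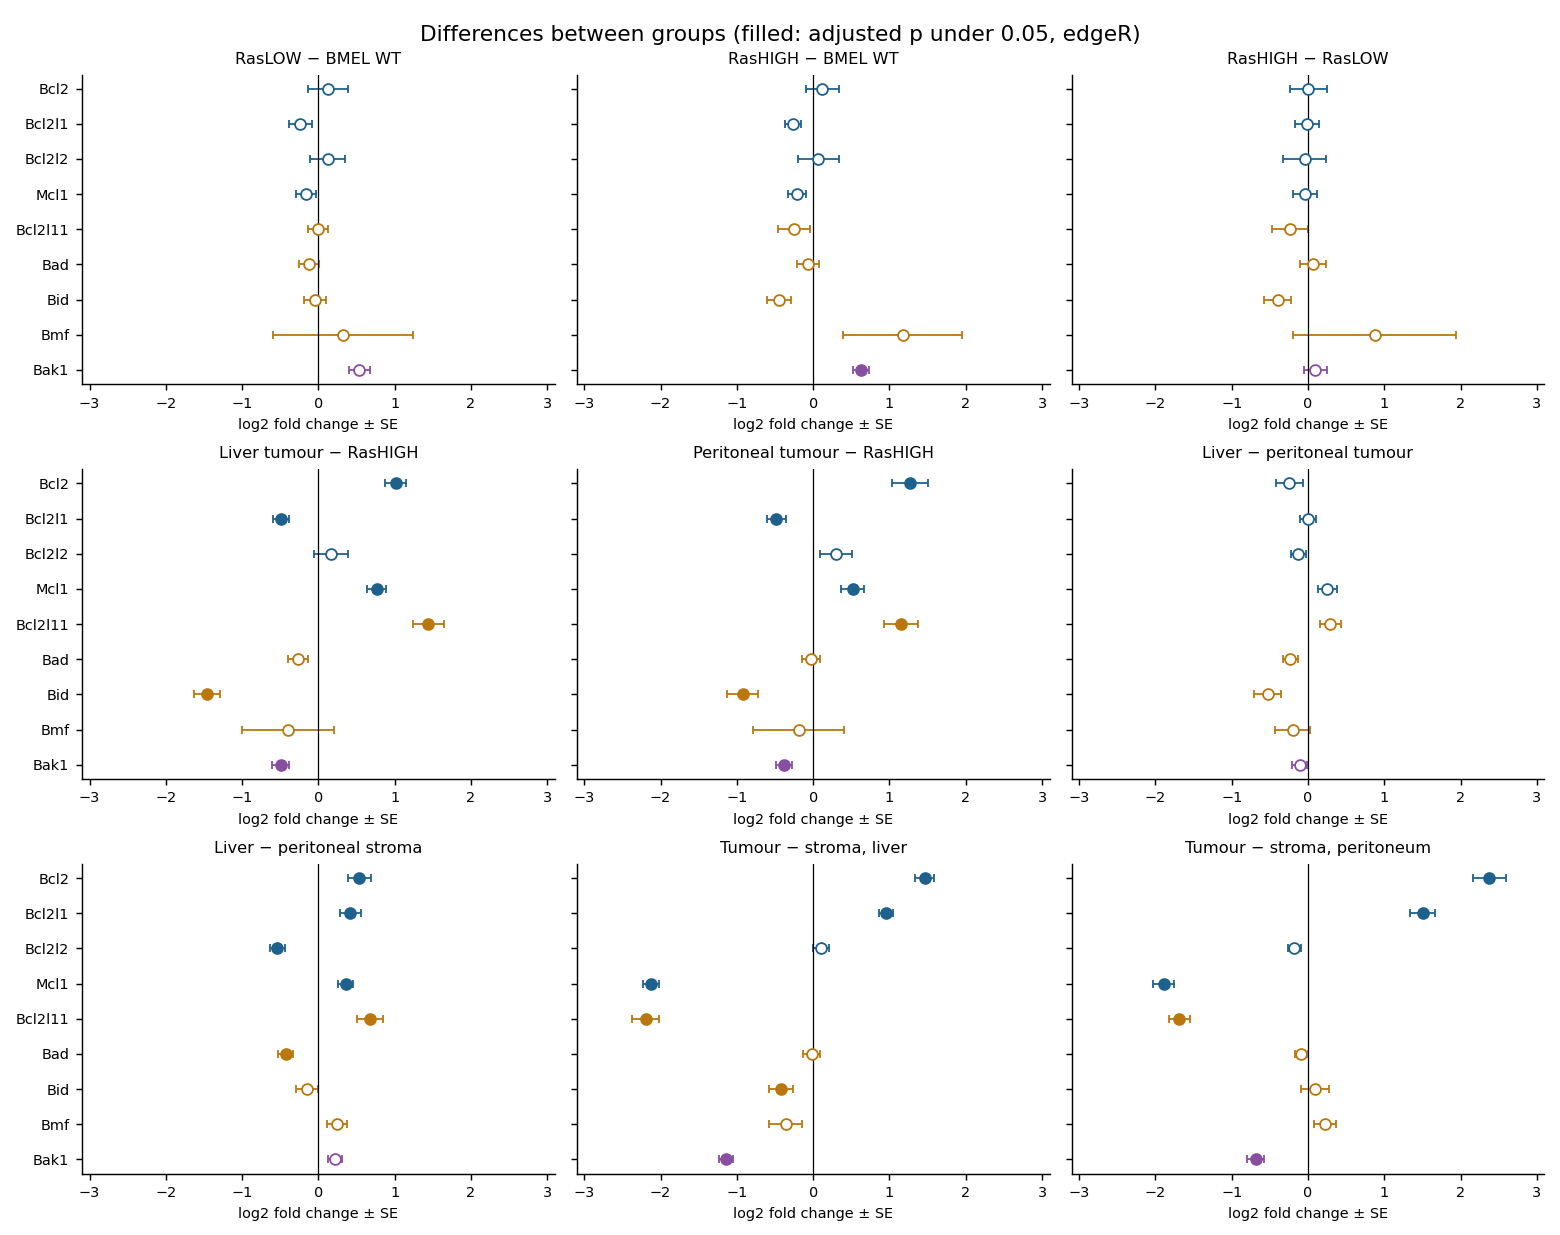
log2 fold change (horizontal axis) with SE of 9 genes in 9 comparisons, the first group minus the second in each title. Filled points have an adjusted p under 0.05 in edgeR, and colours mark pro-survival (blue), BH3-only (orange) and effector (purple) genes. Bik is left out, since its counts outside stroma were under the floor. Few points are filled among cultures and between tumour sites, and Bcl2 and Bcl2l1 lie opposite to Mcl1 and Bcl2l11 in both comparisons of tumour with stromal cells.

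The next comparison set sorted tumour cells beside cultured RasHIGH cells. Bcl2, Mcl1 and Bcl2l11 were higher, and Bcl2l1, Bid and Bak1 lower, in tumour cells of either site. In liver tumour cells 6 of the 9 members tested were called, where 45.1% of 12971 genes were (23.0% higher and 22.1% lower). In peritoneal tumour cells 6 of 9 were called, where 37.9% of 12791 genes were (19.3% higher and 18.6% lower). The groups of the same 6 members did not overlap in either comparison, as was so for 48.8% of all genes in the liver and 44.9% in the peritoneum. Both comparisons used the same 3 RasHIGH cultures, so they are not independent of each other. The median absolute log2 fold change was 0.50 for members and 0.49 for all genes in the liver, and 0.48 and 0.45 in the peritoneum. Culture, dissociation, sorting and sequencing lane differed together between these groups and cannot be told apart, and the Ras population that was injected is not labelled.

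Among the pro-survival genes, the log2 fold change of Bcl2 was 1.01 in liver tumour cells (SE 0.14, edgeR adjusted p = 5.74e-04) and 1.26 in peritoneal tumour cells (SE 0.24, edgeR adjusted p = 0.00508). Mcl1 rose by 0.77 (SE 0.13, edgeR adjusted p = 0.00147) and 0.52 (SE 0.15, edgeR adjusted p = 0.0295). Bcl2l1 was lower, with log2 fold changes of -0.49 for the liver (SE 0.10, edgeR adjusted p = 0.00452) and -0.48 for the peritoneum (SE 0.12, edgeR adjusted p = 0.0177). Bcl2l2 had log2 fold changes of 0.16 and 0.30, and neither passed.

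Among the BH3-only genes Bcl2l11 and Bid went opposite ways. Bcl2l11 was 2.72-fold higher in liver tumour cells than in RasHIGH (log2 fold change 1.44, SE 0.20, edgeR adjusted p = 6.95e-04) and 2.22-fold higher in peritoneal tumour cells (1.15, SE 0.22, edgeR adjusted p = 0.00541). Bid was 2.75-fold lower in liver tumour cells (log2 fold change -1.46, SE 0.17, edgeR adjusted p = 2.50e-04) and 1.90-fold lower in peritoneal tumour cells (-0.93, SE 0.20, edgeR adjusted p = 0.00922). Bad and Bmf did not pass at either site, and Bik was not tested. Bad was called in liver tumour cells without RasHIGH replicate 1 (-0.33, edgeR adjusted p = 0.0448) and with all 25 libraries in 1 fit (edgeR adjusted p = 0.0384). Bmf depended on the RasHIGH culture at 50.6 CPM, without which its log2 fold change turned from -0.40 to 0.95 in liver (edgeR adjusted p = 0.0196) and from -0.19 to 1.16 in peritoneal tumour cells (edgeR adjusted p = 0.00601), and Bcl2l2 was then called too, at 0.49 (edgeR adjusted p = 0.0108) and 0.62 (edgeR adjusted p = 0.00136). Bak1 had log2 fold changes of -0.50 in liver (SE 0.11, edgeR adjusted p = 0.00593) and -0.38 in peritoneal tumour cells (SE 0.11, edgeR adjusted p = 0.0250).

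Genes used as markers of stromal cells were also detected in the tumour cell libraries, and stroma held several times more Mcl1 and Bcl2l11 than tumour cells. Relative to the stroma of the same mouse and site, the tumour libraries held 1.10% to 3.15% of the summed leukocyte markers, 1.14% to 4.19% of the macrophage markers and 0.380% to 2.78% of the fibroblast markers. Part of these sums came from genes that cultured cells also expressed. Among leukocyte markers Cd53 stood at 9.67 CPM in RasHIGH cultures and 60.5 CPM in liver tumour cells, whereas Ptprc stood at 2.14 CPM in liver tumour cells and 974 CPM in liver stroma and Laptm5 at 5.23 and 1703 CPM. Among macrophage markers Cd14 stood at 42.4 CPM in RasHIGH cultures and 38.1 CPM in liver tumour cells, whereas Csf1r stood at 5.65 CPM in liver tumour cells and 1442 CPM in liver stroma. Of the 5 endothelial markers, Cdh5 reached 126 CPM in tumour cells of the liver, 175 CPM in their stroma and 8.56 CPM in RasHIGH cultures, while the other 4 were at 0.218 to 1.96 CPM in liver tumour cells and 31.7 to 203 CPM in liver stroma. The part of these cells in the levels of Mcl1 and Bcl2l11 was not tested. Without the peritoneal tumour cells of mouse 1, Mcl1 and Bcl2l11 were still called in the peritoneum, with log2 fold changes of 0.42 (edgeR adjusted p = 0.0420) and 1.11 (edgeR adjusted p = 0.0121).
The peritoneal calls of Bcl2l1 and Bak1 were lost without that library (edgeR adjusted p = 0.0550 and 0.0518). The peritoneal calls of Mcl1, Bcl2l1 and Bak1 were also lost without some other single library, where the largest edgeR adjusted p was 0.103 for Mcl1 without RasHIGH replicate 2, 0.0699 for Bcl2l1 without peritoneal tumour replicate 2 and 0.0977 for Bak1 without the same.

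Sorted tumour cells were then compared with the stromal cells of the same tumours. Tumour cells held more Bcl2 and Bcl2l1, and stromal cells more Mcl1, Bcl2l11, Bik and Bak1, at both sites. In the liver 7 of the 10 members were called, where 77.8% of 14620 genes were (38.4% higher and 39.4% lower). In the peritoneum 6 of 10 were called, where 76.6% of 14584 genes were (39.5% higher and 37.1% lower). The groups of 6 members did not overlap at each site, against 73.5% of all genes in the liver and 71.8% in the peritoneum. Bik passed the filter on low counts through its stromal counts alone, so it had to differ. The 2 sorts hold different cell types, so no member is compared here within 1 cell type. Stroma also held epithelial progenitor markers, at 1210 to 1546 CPM in the liver and 667 to 1086 CPM in the peritoneum. The part of cells with these markers in the stromal levels was not tested.

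Bcl2 was 2.76-fold higher in tumour than in stromal cells of the liver (log2 fold change 1.46, SE 0.12, edgeR adjusted p = 4.96e-07) and 5.18-fold higher in the peritoneum (2.37, SE 0.22, edgeR adjusted p = 1.81e-05). Bcl2l1 was 1.93-fold higher in the liver (0.95, SE 0.09, edgeR adjusted p = 1.30e-06) and 2.84-fold higher in the peritoneum (SE 0.17 on the log2 scale, edgeR adjusted p = 4.99e-05). Mcl1 was 4.37-fold lower in tumour cells of the liver (-2.13, SE 0.11, edgeR adjusted p = 5.37e-09) and 3.72-fold lower in the peritoneum (-1.89, SE 0.13, edgeR adjusted p = 4.61e-06). These 3 genes differed in the same direction in each of the 4 mice at both sites.

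Bcl2l11 was 4.59-fold lower in tumour cells of the liver (log2 fold change -2.20, SE 0.18, edgeR adjusted p = 3.52e-07) and 3.22-fold lower in the peritoneum (-1.69, SE 0.14, edgeR adjusted p = 9.33e-06). Bak1 was 2.21-fold lower in the liver (-1.14, SE 0.09, edgeR adjusted p = 1.58e-07) and 1.61-fold lower in the peritoneum (-0.69, SE 0.11, edgeR adjusted p = 3.74e-04). Bik had 136 counts over the 4 liver stromal libraries and 5 over the liver tumour cell libraries, a ratio of 32.2 per sequenced read (95% exact interval 13.5 to 101). In the peritoneum it had 80 and 3 counts, a ratio of 38.4 (12.7 to 190), and both intervals cover counting error only. Bid was lower in tumour cells of the liver (-0.42, SE 0.15, edgeR adjusted p = 0.0264), a call that was lost when any of 4 single libraries was left out (edgeR adjusted p up to 0.0761 without liver tumour replicate 1).

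Bcl2l2 and Bad, near the median of all genes here, depended on the scaling in the peritoneum. With TMM their log2 fold changes were -0.18 (edgeR adjusted p = 0.0815) and -0.08 (edgeR adjusted p = 0.385). RLE factors moved the median gene by -0.139 in this comparison, and both genes were then called lower in tumour cells, at -0.32 (edgeR adjusted p = 0.00730) and -0.23 (edgeR adjusted p = 0.0273), as they were by DESeq2. Bcl2l2 was also called without the peritoneal tumour cells of mouse 1 (-0.25, edgeR adjusted p = 0.0463) and without the peritoneal stroma of mouse 1 (-0.24, edgeR adjusted p = 0.0175). Bid changed sign under the same factors, from 0.09 to -0.05. Bmf was not called in the liver (log2 fold change -0.36, edgeR adjusted p = 0.149) but was with the mouse as a block (-0.41, edgeR adjusted p = 0.0189).

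The site of growth was compared within each sort. Between liver and peritoneal tumour cells 0 of the 9 members tested were called by edgeR, where 3.20% of 13074 genes were (1.33% higher and 1.87% lower), and DESeq2 also called 0. The groups overlapped for all 9 members, whereas those of 12.1% of all genes did not. At an unadjusted p under 0.05 there were 2 members, Bid and Bad. Bid was lower in liver tumour cells in each of the 4 mice, with a log2 fold change of -0.53 (SE 0.18, edgeR adjusted p = 0.138), and it was called without the peritoneal tumour cells of mouse 1 (-0.66, edgeR adjusted p = 0.0322). Bad had a log2 fold change of -0.23 (SE 0.10, edgeR adjusted p = 0.216) and Bak1 one of -0.11 (SE 0.10, edgeR adjusted p = 0.560), and both were also lower in liver tumour cells in each of the 4 mice. Bcl2l1 was level between the sites, at -0.00 with an SE of 0.10, and its groups overlapped.

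Between liver and peritoneal stroma 6 of the 10 members were called, where 33.4% of 14755 genes were (14.9% higher and 18.5% lower). The groups of 5 members did not overlap, as was so for 34.9% of all genes. Higher in liver stroma were Bcl2l11 (log2 fold change 0.68, SE 0.17, edgeR adjusted p = 0.0137), Bcl2 (0.54, SE 0.15, edgeR adjusted p = 0.0215), Bcl2l1 (0.42, SE 0.14, edgeR adjusted p = 0.0416) and Mcl1 (0.36, SE 0.10, edgeR adjusted p = 0.0193). Lower in liver stroma were Bcl2l2 (-0.54, SE 0.10, edgeR adjusted p = 0.00225) and Bad (-0.43, SE 0.10, edgeR adjusted p = 0.00704). Bak1 had a log2 fold change of 0.22 (edgeR adjusted p = 0.108) and was called with the mouse as a block (edgeR adjusted p = 0.0455). All 6 of the called genes differed in the same direction in each of the 4 mice.

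Cell composition moved with these stromal differences. Liver stroma held more of the leukocyte markers, 3322 to 4079 against 2186 to 2641 CPM, and far less of the fibroblast markers than peritoneal stroma. It also held more of the epithelial progenitor markers that tumour cells express, 1210 to 1546 against 667 to 1086 CPM. Tumour cells held more Bcl2 and Bcl2l1 than stroma at both sites. The Kupffer cell gene Clec4f was at 112 CPM in liver stroma and at 0 in peritoneal stroma. The part of these cells in the differences was not tested. The calls of Bcl2l11, Bcl2l2 and Bad were kept without any 1 library and in the other fits, except under the study's fold thresholds, while those of Bcl2, Bcl2l1 and Mcl1 were lost in some. Bcl2 was lost without liver stroma replicate 2 or 4 or peritoneal stroma replicate 2 or 3 (edgeR adjusted p up to 0.0626), Mcl1 without liver stroma replicate 1 or 3 or peritoneal stroma replicate 2 (up to 0.0642), and Bcl2l1 without liver stroma replicate 2, 3 or 4 or peritoneal stroma replicate 1 or 3 (up to 0.0998) and with lane as a term (0.0675).

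**Figure D4:**
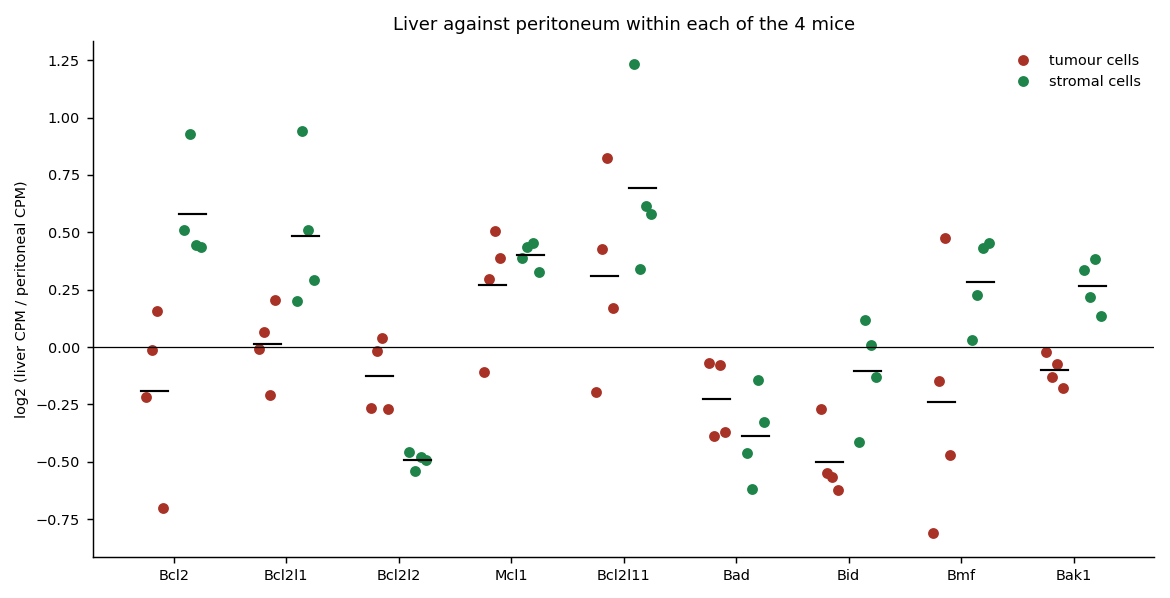
log2 ratio of liver to peritoneal CPM (vertical axis) within each of the 4 mice for 9 genes (horizontal axis), in tumour cells (red) and stromal cells (green), with the mean as a black line. Ratios of the stroma lie above 0 in all 4 mice for Bcl2, Bcl2l1, Mcl1, Bcl2l11, Bmf and Bak1, and below 0 for Bcl2l2 and Bad. Ratios of tumour cells lie below 0 in all 4 mice for Bid, from -0.62 to -0.27, and nearer 0 for Bad and Bak1.

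Whether the site effect itself differed between tumour and stromal cells was tested as an interaction. Bcl2 was the 1 member called of 10, where 14.3% of 15331 genes were (6.79% above 0 and 7.5% below), with a difference of -0.86 on the log2 scale (SE 0.25, edgeR adjusted p = 0.0346). In stroma the log2 ratio of liver to peritoneum was 0.51, 0.93, 0.44 and 0.44 in mice 1 to 4, and in tumour cells it was -0.22, -0.01, 0.16 and -0.70. The difference was therefore in the same direction in each of the 4 mice. The call was lost without a filter on low counts (edgeR adjusted p = 0.0550), with all 25 libraries in 1 fit (edgeR adjusted p = 0.0865), and without each of 10 of the 16 libraries (edgeR adjusted p up to 0.0980). Without the peritoneal stroma of mouse 1, Bcl2 was lost (edgeR adjusted p = 0.0786) and Bcl2l2 was called (0.45, edgeR adjusted p = 0.0376). With the mouse as a block 4 members were called: Bcl2 (edgeR adjusted p = 0.00567), Bak1 (-0.41, edgeR adjusted p = 0.00802), Bcl2l2 (0.32, edgeR adjusted p = 0.0272) and Bcl2l1 (-0.51, edgeR adjusted p = 0.0405). The 14.3% above belongs to the fit without a block. The share of all genes called with the block is not given here, so this count of 4 has no background beside it.

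Other genes of the pathway were read from 3 lists: 16 other Bcl2 family genes, 16 genes of the apoptosome, caspases and their inhibitors, and 12 regulators of BH3-only genes and of Mcl1. In RasLOW against BMEL WT, 1 of the 10 other family genes tested was higher and 2 were lower (1.92% and 4.05% of all genes), and in RasHIGH 2 were higher and 1 lower (10.9% and 11.7%). Pmaip1, which encodes Noxa, the BH3-only partner of Mcl-1, was lower in both, with log2 fold changes of -2.17 in RasLOW and -4.47 in RasHIGH. Bnip3, a hypoxia-responsive mitochondrial gene, was higher in both, at 1.89 and 2.89, and Bok, an effector homologue, rose by 2.85 on the log2 scale in RasHIGH. Bax, the partner of Bak, was lower in RasLOW, at -0.53. The inhibitor of apoptosis gene Birc3 stood at 0.10 CPM in RasHIGH against 1.90 CPM in BMEL WT, from 1 to 4 counts per RasHIGH library. Of the 11 regulators tested, edgeR called 0 in RasLOW, where 2 had an unadjusted p under 0.05 and DESeq2 called 1, and 2 were higher in RasHIGH, Foxo4 (1.34) and the Mcl-1 ubiquitin ligase gene Huwe1 (0.59). In RasHIGH against RasLOW edgeR called 0 genes of the 3 lists, in which 3, 4 and 0 genes had an unadjusted p under 0.05 and DESeq2 called 1, 0 and 0. Pmaip1 stood at 4.00 CPM in RasHIGH and 19.6 CPM in RasLOW without overlap, a log2 fold change of -2.29 (SE 0.33, edgeR adjusted p = 0.0842, DESeq2 adjusted p = 3.90e-08).

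In tumour against stromal cells the other family genes split, with 4 higher and 7 lower of 14 tested in the liver (38.4% and 39.4% of all genes), and 6 higher and 6 lower in the peritoneum (39.5% and 37.1% of all genes). The lowest in tumour cells were the Bcl2a1 genes, haematopoietic pro-survival genes, with Bcl2a1b at 0.252 against 96.3 CPM in the liver and 0.355 against 63.8 CPM in the peritoneum. Bcl2a1a to Bcl2a1d are near-identical copies, so the split of reads among them is uncertain. In liver tumour cells Bcl2a1a stood at 0.0822 and Bcl2a1d at 0.0114 CPM, and in peritoneal tumour cells Bcl2a1c stood at 0. They passed the filter on low counts through stroma alone, so they had to be lower, and the counts of lower genes include such calls. Birc3 was lower in tumour cells, at 1.49 against 172 CPM in the liver and 2.08 against 123 CPM in the peritoneum. Of the 11 regulators, 10 were higher and 0 lower in tumour cells at each site, where 38.4% of all genes in the liver and 39.5% in the peritoneum were higher, among them Huwe1 (0.85 and 1.27). Between liver and peritoneal tumour cells edgeR called 0 genes of the 3 lists, in which 3, 1 and 2 genes had an unadjusted p under 0.05 and DESeq2 called 2, 1 and 1. In stroma 8 of 14 other family genes were higher in the liver, led by Bcl2l14 (1.37), Bcl2l15 (1.30) and Pmaip1 (0.73), and 0 were lower, where 14.9% of all genes were higher and 18.5% lower.

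Against cultured RasHIGH cells, 5 of the 10 other family genes were higher and 2 lower in liver tumour cells (23.0% and 22.1% of all genes), and 4 and 2 in peritoneal tumour cells (19.3% and 18.6% of all genes). Bnip3 rose from 40.2 CPM in culture to 469 CPM in the liver and 350 CPM in the peritoneum, and Pmaip1 from 4.00 to 10.9 and 12.7 CPM. Of the regulators, 5 were higher and 2 lower in liver tumour cells. Foxo3, a transcription factor known to drive Bcl2l11, stood at 1.06 with overlapping groups (edgeR adjusted p = 0.0323). Fbxw7 stood at 0.83 (edgeR adjusted p = 0.00474) and Trp53 at -0.80 (edgeR adjusted p = 0.00595), both without overlap. The part of Foxo3 in the Bcl2l11 level was not tested. In peritoneal tumour cells 0 regulators were higher and 2 were lower, Dynll2 (-0.83) and Trp53 (-0.58). In the interaction of site and sort, 14.3% of all genes were called (6.79% above 0 and 7.5% below). Of 14 other family genes tested 1 was called, Bax (-0.55), and of 11 regulators 1, Trp53 (-0.44). Of 16 caspase and inhibitor genes 3 were called, Birc5 (0.74), Xiap (-0.50) and Casp8 (-0.47).

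Over the 7 group means of log2(CPM + 1), the members formed contrasting patterns, given as a description because the 7 points are few and share libraries with the tests above. Mcl1 and Bcl2l11 had a Pearson correlation of 0.98, and Mcl1 and Bcl2l1 one of -0.95. The genes most like Mcl1 were Fosl2 and Fut4 (r = 0.9995 and 0.9993), and those most like Bcl2l11 were Dmpk (0.9981) and Dnajc16 (0.9968). Bcl2 was nearest to Fam83b (0.9975), Bcl2l1 to Zfp24 (0.9957) and 1700086O06Rik (0.9969), Bid to Pinx1 (0.9989) and Bak1 to Acsl1 (0.9957). Bad, with its narrow range, had the weakest best match, Slc37a3 at 0.9434.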

How the data were processed

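RNA from 9 BMEL cultures and from tumour and stromal cells of 4 mice was sequenced as mRNA libraries. The authors deposited a table of raw read counts per gene for 24984 genes and 25 libraries. The paper describes alignment to mm9 with TopHat2, whereas the submitters' processing notes name Bowtie, mm8 and mm10, and the counting program, strand setting and annotation are not given in the sources used here. Each gene was taken by its symbol in the table. The members and all gene and marker lists were chosen with earlier results of these data known.

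Genes were filtered with filterByExpr (minimum count 10) and compared pairwise with edgeR 4.0.16 in R 4.3.3, by quasi-likelihood tests with TMM factors and Benjamini-Hochberg adjustment over all genes tested, at 0.05. The site and sort interaction used the 16 tumour and stromal libraries. DESeq2 1.42.0 was an alternative. The scripts were tested on simulated data. Lengths came from GENCODE vM1 (mm9) and promoters from RefSeq. Named genes of the other pathway lists were up to 3 per list and comparison with the largest change among those called, and some of these are not reported here. Genes most like a member were the nearest by Pearson correlation over the 7 group means of log2(CPM + 1), at 1 CPM or more.

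Total counts of 20818989 to 51241336 per library set the precision, and a floor of 3 counts covers counting error only. The cultures are separate samples of a line, so their p-values measure the spread between these cultures. The main fits held no term for the mouse, so their p-values are unpaired. Libraries of 1 mouse were matched through the mouse number in the labels only for the ratios within mice and the fits with the mouse as a block. Their deviations from group means correlated at -0.171 to 0.357. No 2 libraries held identical values, and replicates correlated at 0.965 to 0.995.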

Additional observations from a re-analysis of the deposited data

Results flagged for a closer look

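In a group of 4 libraries, a level was flagged when its gap to the nearest library exceeded Dixon's 95% critical value as a share of the group's range. Of 40 groups tested 3 were flagged, and chance flags about 1 in 20. Bcl2 in peritoneal stroma stood at 29.7 CPM in mouse 4, against 22.8 CPM for the next library and 21.4 CPM for the lowest. Mcl1 in liver tumour cells stood at 434 CPM in mouse 3, against 353 CPM for the next library and 343 CPM for the lowest. Bik in liver stroma stood at 1.96 CPM in mouse 2, against 0.922 CPM for the next library, and the same library held the most hepatocyte markers of the liver stroma, 215 CPM in sum, and the most endothelial markers, 1034 CPM against 497 to 631 CPM. The part of those cells in the Bik level was not tested.

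Bcl2 was also flagged because its site effect differed between tumour and stromal cells, by -0.86 on the log2 scale (SE 0.25, edgeR adjusted p = 0.0346). Without the peritoneal tumour cells of mouse 1 the adjusted p in edgeR was 0.0566, and without the peritoneal stroma of mouse 1 it was 0.0786.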

How the results depend on the processing

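The lists above were counted again under other tests, scalings, filters, blocks and sample sets, where sequencing lane as a term and the fit without both high-Bmf cultures were chosen after the data were seen. Members called in RasLOW against BMEL WT came to 0 in edgeR and to 1 with DESeq2, with the exact test and with all 25 libraries in 1 fit. In RasHIGH against BMEL WT 0 were called with lane as a term and 0 at the study's thresholds of fold change and unadjusted p. Those thresholds left 0 members between stromal sites, 3 in liver and 2 in peritoneal tumour cells against RasHIGH. The interaction gave 0 without a filter on low counts and 0 with all 25 libraries, 2 with lane as a term and 4 with the mouse as a block. With 1 library left out, members called ranged from 0 to 1 in RasLOW against BMEL WT (1 without RasLOW replicate 2), from 0 to 1 between tumour sites (1 without peritoneal tumour replicate 1), from 0 to 2 in the interaction (2 without peritoneal stroma replicate 4), from 4 to 7 between stromal sites (7 without peritoneal stroma replicate 4), from 6 to 9 in liver and 4 to 8 in peritoneal tumour cells against RasHIGH (9 and 8 without RasHIGH replicate 1), and from 6 to 7 in both comparisons of tumour with stroma.

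Members whose sign turned were not called in edgeR with all libraries of a comparison, though Bmf was called after turning without RasHIGH replicate 1. In RasLOW against BMEL WT the log2 fold change of Bcl2l11 was 0.0066 without a filter and 0.023 with all 25 libraries, that of Bmf -0.59 when blocked on culture number and -0.43 with lane as a term, and that of Bcl2 -0.25 with lane as a term, as it was -0.26 in RasHIGH against BMEL WT. In RasHIGH against RasLOW Bcl2l1 stood at 0.0017 without a filter, and without both high-Bmf cultures at 0.069, with Mcl1 at 0.071 and Bak1 at -0.017. Between tumour sites Bcl2l1 stood at 0.0032 without a filter, 0.0050 with the mouse as a block and 0.032 with lane as a term. Bid in peritoneal tumour against stromal cells stood at -0.051 with DESeq2, -0.050 with RLE factors and -0.0081 with all 25 libraries. The cause was not tested.

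With 1 library left out, the log2 fold change against BMEL WT in RasLOW ranged from -0.16 to 0.36 for Bcl2, -0.083 to 0.32 for Bcl2l2, -0.043 to 0.017 for Bcl2l11, -0.12 to 0.018 for Bid and -1.57 to 0.91 for Bmf. In RasHIGH it ranged from -0.024 to 0.35 for Bcl2, -0.24 to 0.27 for Bcl2l2, -0.091 to 0.0093 for Bad and -0.15 to 1.77 for Bmf. Between RasHIGH and RasLOW it ranged from -0.13 to 0.28 for Bcl2, -0.12 to 0.087 for Bcl2l1, -0.36 to 0.15 for Bcl2l2, -0.12 to 0.022 for Mcl1, -0.45 to 2.74 for Bmf and -0.012 to 0.17 for Bak1. Against RasHIGH, Bmf ranged from -0.84 to 0.95 in liver and -0.63 to 1.16 in peritoneal tumour cells, and Bad from -0.095 to 0.048 in the latter. Between tumour sites Bcl2l1 ranged from -0.067 to 0.10. In tumour against stroma Bad ranged from -0.10 to 0.050 in the liver and Bid from -0.098 to 0.18 in the peritoneum. In the interaction Bik ranged from -0.27 to 1.15 and Mcl1 from -0.25 to 0.033.

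Counts of all genes moved more. RasLOW against BMEL WT gave 734 genes, and 1622 with DESeq2, 1352 with the exact test, 295 with the replicate number as a block, 2440 with all 25 libraries and 26 with lane as a term. RasHIGH against BMEL WT gave 2789, and 4347 with all 25 libraries, 545 with lane as a term and 1190 at the study's thresholds. RasHIGH against RasLOW gave 9, and 419 with DESeq2, 331 with the exact test, 77 without a filter, 0 with the block, 917 with all 25 libraries, 50 without both high-Bmf cultures and 253 at the study's thresholds. Tumour sites gave 419, and 1146 with DESeq2, 945 with the exact test, 102 with the mouse as a block and 195 with lane as a term. The study's thresholds gave 2107 of 4926 genes between stromal sites, 6437 of 11376 and 6377 of 11168 in tumour against stroma of the liver and peritoneum, and 3050 of 5851 and 2571 of 4846 in liver and peritoneal tumour cells against RasHIGH. The interaction gave 2191, and 1180 with all 25 libraries. With 1 library left out the counts ranged from 148 (without BMEL WT replicate 2) to 2340 (without RasLOW replicate 2) in RasLOW against BMEL WT, from 0 to 16 (without RasLOW replicate 1) in RasHIGH against RasLOW, from 1517 to 3896 in RasHIGH against BMEL WT, and were as low as 41 between tumour sites (without liver tumour replicate 2) and more than doubled there without peritoneal tumour replicate 1, so the shares of all genes called there move as much. The replicate numbers of the cultures share only a number, with same-number correlations above 0.1 in 0, 2 and 1 of 3 pairs, and the block by that number changed no member's call. The mouse block changed no member's call beyond those given in the report. At this depth Bik is not resolved outside stroma, where its libraries held 0 to 2 counts.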
